A study of Mus musculus with 6 samples.

Results

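The 10 genes described here encode immediate early transcription regulators: the FOS genes Fos, Fosb and Fosl2, the JUN genes Jun, Junb and Jund, the zinc finger genes Egr1, Egr2 and Egr3, and Ier2, which encodes a short nuclear protein induced with them. They were chosen as named members of these families, with earlier results of these data known. For each the brightest probe set that carried its symbol alone was used, and all 10 were found among the 19938 named genes of the array. Each was measured by 1 probe set, so transcript isoforms (for Fosb, the full-length and the truncated form) were not separated.

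The cells were mouse pre-B cells of strain C57BL/6, transformed with the leukaemia oncogene BCR-ABL1, a constitutively active tyrosine kinase, and homozygous for a floxed Inpp5d allele, the gene of the lipid phosphatase SHIP1. In 3 arrays the cells carried PMIP-CRE-ERT2, a Cre recombinase that tamoxifen switches on (Cre-ERT2), and in 3 arrays PMIP-ERT2, the tamoxifen-binding domain without Cre (ERT2 control). All cells, controls included, were puromycin-resistant and had 0.5 µM 4-hydroxytamoxifen for 2 days before total RNA was taken. No group had Cre without floxed alleles or went without tamoxifen, so Cre activity and loss of Inpp5d cannot be told apart. Cells cultured apart are not named in the labels as the source of replicates, and p-values then measure sample-to-sample spread only, possibly a technical one.

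Immediate early genes are transcribed within minutes of a stimulus without new protein synthesis, through serum response factor with its partners and through CREB, mostly downstream of ERK, JNK and p38 kinases. FOS and JUN proteins pair through leucine zippers to form AP-1, which binds TGANTCA, and EGR proteins bind GC-rich sites through zinc fingers. In B lineage cells both families act downstream of the pre-B cell receptor and of BCR-ABL1 signalling through RAS and ERK.

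The promoters of Fosb and Jun are shown because both genes rose, those of Fos and Junb for comparison, each 1 relative among those that did not pass, and that of Egr2 because it held a serum response motif. Each window runs from 250 bases before to 50 bases after the annotated start, 5′ to 3′ on the gene's strand, from RefSeq (GRCm38.p6). Capitals mark matches, on either strand, to the CArG box of serum response factor, to TGACNTCA (the full cyclic AMP response element and its AP-1 variants), TGACG (its core, which can lie within the former), TGANTCA (AP-1) and GCGNGGGCG (EGR). RefSeq windows were matched for 7 of the 10 genes; Egr1, Egr3 and Ier2 were not among the windows used here.
Fosb, chr7:19309996-19310295, minus strand: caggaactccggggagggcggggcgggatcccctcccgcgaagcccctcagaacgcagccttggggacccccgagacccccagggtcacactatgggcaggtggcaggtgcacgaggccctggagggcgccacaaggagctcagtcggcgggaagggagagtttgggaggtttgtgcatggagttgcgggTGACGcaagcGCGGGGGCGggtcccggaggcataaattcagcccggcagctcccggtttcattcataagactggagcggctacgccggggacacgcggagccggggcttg
Jun, chr4:95052173-95052472, minus strand: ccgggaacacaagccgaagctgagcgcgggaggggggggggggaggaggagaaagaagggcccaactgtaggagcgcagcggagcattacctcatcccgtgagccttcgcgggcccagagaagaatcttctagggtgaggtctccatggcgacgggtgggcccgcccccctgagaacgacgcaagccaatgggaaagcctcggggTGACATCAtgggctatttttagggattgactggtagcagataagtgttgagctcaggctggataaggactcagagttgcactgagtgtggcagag
Fos, chr12:85473640-85473939, plus strand: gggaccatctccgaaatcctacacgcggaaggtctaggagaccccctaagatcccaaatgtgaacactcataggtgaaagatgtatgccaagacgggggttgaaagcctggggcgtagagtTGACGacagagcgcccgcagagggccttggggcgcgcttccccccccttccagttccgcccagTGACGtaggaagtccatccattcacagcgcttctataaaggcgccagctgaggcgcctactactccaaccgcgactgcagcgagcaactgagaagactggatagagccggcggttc
Junb, chr8:84978699-84978998, minus strand: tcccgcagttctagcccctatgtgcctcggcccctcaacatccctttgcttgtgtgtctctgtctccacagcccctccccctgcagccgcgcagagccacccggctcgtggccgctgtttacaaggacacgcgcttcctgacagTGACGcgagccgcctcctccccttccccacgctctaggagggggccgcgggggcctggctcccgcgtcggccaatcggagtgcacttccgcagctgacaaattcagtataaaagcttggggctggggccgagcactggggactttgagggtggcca
Egr2, chr10:67537619-67537918, plus strand: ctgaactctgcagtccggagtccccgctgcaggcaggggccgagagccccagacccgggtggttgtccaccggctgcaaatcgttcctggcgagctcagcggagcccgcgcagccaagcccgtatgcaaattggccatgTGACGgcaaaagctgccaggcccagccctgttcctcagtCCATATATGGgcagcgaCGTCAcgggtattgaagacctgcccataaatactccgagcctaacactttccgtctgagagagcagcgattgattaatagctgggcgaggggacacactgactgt

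The Fosb window held TGACG at base -60 and an EGR match, GCGGGGGCG, at -50, counted from the start. The same EGR letters stood at -79 in Fosl2. The Jun window held TGACATCA at -45, the Fos window TGACG at -129 and -66, and the Junb window TGACG at -106. Egr2 has 5 annotated windows, some of them overlapping, of which 4 held a CArG box. The overlapping windows share the same CCATATATGG and another window held CCTTTTTTGG, so distinct sites are fewer than windows. The window shown has CCATATATGG at -72 and TGACG on each strand. The Jund window matched none of the motifs, and no window of these genes matched TGANTCA. Among all 32851 windows of this length, 20.8% held TGACG, 8.83% TGACNTCA, 7.81% TGANTCA, 5.55% GCGNGGGCG and 1.63% a CArG box. These matches describe letters in a short window, and elements farther upstream were not searched.

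Inpp5d itself did not fall with Cre-ERT2 (log2 values 13.37, 13.34 and 13.34, against 13.20, 13.21 and 13.17 in the controls; limma adjusted p = 0.0545), and the sources used here do not give which exons its probe set reads, so groups are named by their labels. The 6 arrays correlated at r from 0.988 to 0.997 across probe sets. Of 14953 genes tested, 1140 (7.62%) passed an adjusted p under 0.05, 523 of them higher (3.5%) and 617 of them lower (4.13%) with Cre-ERT2. Centring each array on its median gave 223 higher and 2797 lower and moved the median difference of all genes from 0.026 to -0.077 on the log2 scale.

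Of the 10 immediate early genes, Fosb, Egr1 and Jun rose in the arrays labelled Cre-ERT2, 1 from each of the FOS, EGR and JUN families. At limma's adjusted p under 0.05 these 3 passed as higher and 0 as lower, against 3.5% and 4.13% of all genes. All 10 were bright enough to be tested. The other 7 did not pass limma's test at an adjusted p of 0.05; at an unadjusted p under 0.05, 6 of the 10 were higher and 1 was lower, against 19% and 14.4% of all genes (33.4% in either direction). The 10 genes had a median log2 difference of 0.14, against 0.026 over all genes. In 6 genes every Cre-ERT2 value exceeded every control value, in 1 (Ier2) every one was below, and in 3 the groups overlapped; over all genes the groups did not overlap in 38.5%. Because the 10 genes were chosen with earlier results of these data known, these shares describe them and do not test the set.

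**Figure D1:**
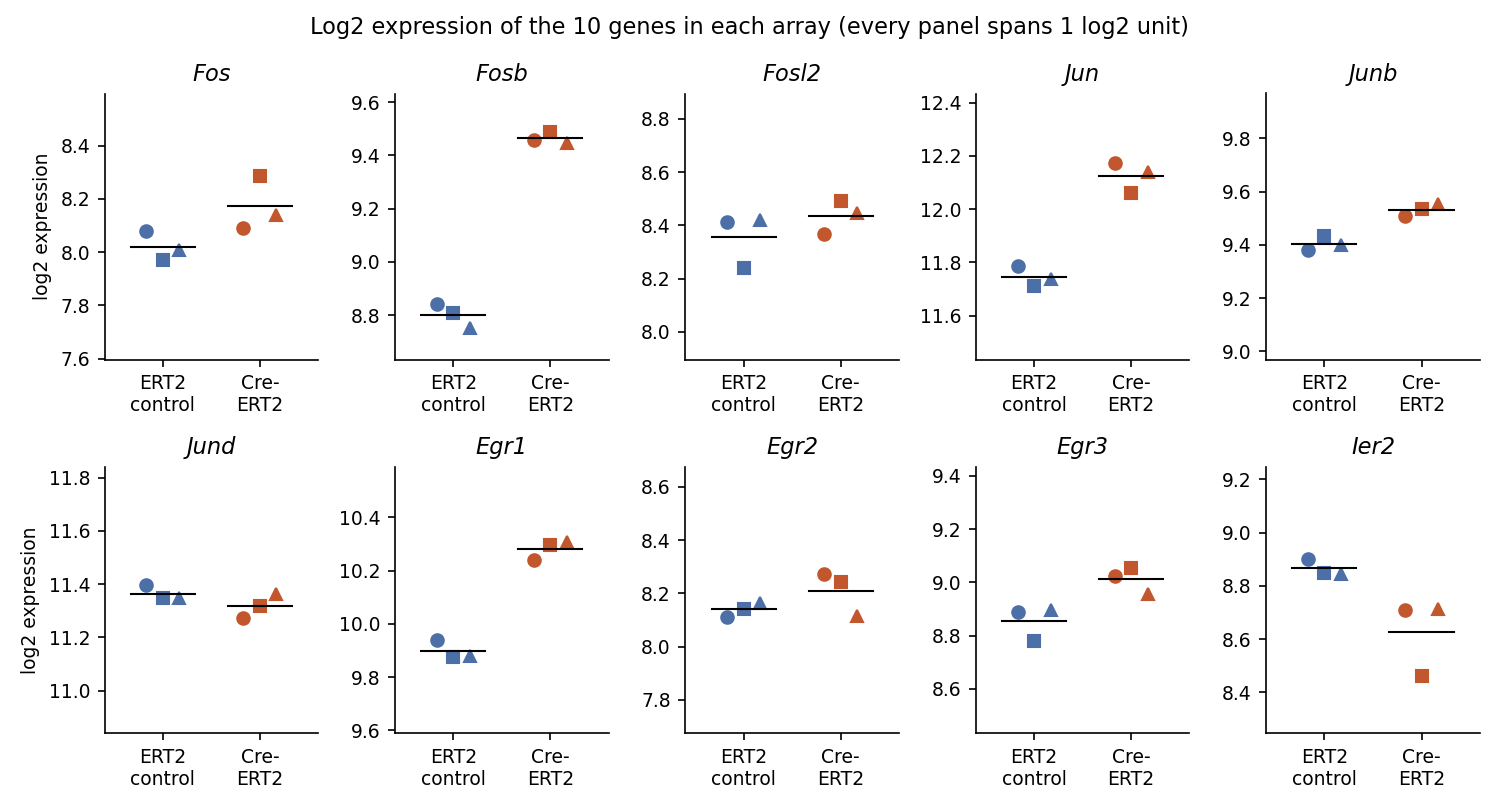
Log2 expression of each gene in the 3 ERT2 control arrays (blue) and the 3 arrays labelled Cre-ERT2 (orange). Circle, square and triangle are replicates 1, 2 and 3, the line is the group mean, and every panel spans 1 log2 unit, so heights of steps can be compared. Fosb shows the largest step (8.80 to 9.47), Jun and Egr1 intermediate steps, and Ier2 a lower and more scattered Cre-ERT2 group.

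Fosb, which encodes a FOS protein that also exists as a truncated, long-lived form, had the largest difference of the 10. Its log2 values were 8.84, 8.81 and 8.75 in the ERT2 controls and 9.46, 9.49 and 9.45 with Cre-ERT2. The groups lay far apart: the lowest Cre-ERT2 value was well above the highest control, and the 3 Cre-ERT2 values were nearly alike (SD 0.020, n = 3). The log2 difference of 0.66 ± 0.045 (SE; 95% interval 0.56 to 0.77), a 1.58-fold higher level, passed limma's test (adjusted p = 4.63e-04).

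Fos, the founding member of the family, stood at log2 values of 8.08, 7.97 and 8.01 in the controls and 8.09, 8.29 and 8.14 with Cre-ERT2. The groups nearly touched, because Cre-ERT2 array 1 lay just above control array 1. The log2 difference of 0.15 ± 0.062 (SE; 95% interval 0.010 to 0.29) did not pass (adjusted p = 0.130), and it was 0.045, 0.050 and 0.056 after quantile normalization, centring and loess between arrays. Fosl2, which encodes FRA2, a FOS protein without the strong activation domain, had control values of 8.41, 8.24 and 8.42 and Cre-ERT2 values of 8.37, 8.49 and 8.44. Its groups overlapped, and the difference of 0.078 ± 0.063 (adjusted p = 0.392) turned slightly negative under the same 3 scalings. With 1 array left out, Fosl2 was lowest without ERT2 control array 2 (0.019) and Fos without Cre-ERT2 array 2 (0.094), and array weights gave 0.021 and 0.087.

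Jun, which encodes the JUN protein that pairs with FOS and is phosphorylated by JNK, rose from log2 values of 11.78, 11.71 and 11.74 to 12.17, 12.06 and 12.14. Every array labelled Cre-ERT2 lay above every control. The log2 difference was 0.38 ± 0.049 (SE; 95% interval 0.27 to 0.49), or 1.30-fold (adjusted p = 0.00656). After centring on array medians it was 0.28 (adjusted p = 0.00907).

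Junb, whose protein pairs with FOS as a weaker activator and restrains B cell leukaemia in mouse models, had values of 9.38, 9.43 and 9.40 in the controls and 9.51, 9.53 and 9.55 with Cre-ERT2. The groups were separate and each was tight, but the difference was small: 0.13 ± 0.043 (SE; 95% interval 0.029 to 0.23; adjusted p = 0.0885). It passed with array weights (0.13, adjusted p = 0.0387) and was 0.025 after centring (adjusted p = 0.833).

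Jund, which encodes the JUN protein most abundant in resting cells, had values of 11.40, 11.35 and 11.35 in the controls and 11.27, 11.32 and 11.36 with Cre-ERT2. The groups overlapped, with Cre-ERT2 array 3 at the level of the controls. The difference was -0.047 ± 0.046 (SE; 95% interval -0.15 to 0.058; adjusted p = 0.479), and the interval does not reach the rise of Jun. It was -0.15 after centring, -0.025 after quantile normalization, -0.014 after loess and -0.076 with array weights. Without ERT2 control array 1 it was -0.030, and without Cre-ERT2 array 1 it was -0.024.

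Egr1, the zinc finger gene most widely induced by ERK, had log2 values of 9.94, 9.88 and 9.88 in the controls and 10.24, 10.30 and 10.31 with Cre-ERT2. The groups were separate in every array. Its difference of 0.38 ± 0.045 (SE; 95% interval 0.28 to 0.49), 1.30-fold, was close in size to that of Jun (adjusted p = 0.00532), and it was 0.28 after centring (adjusted p = 0.00989).

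Egr2, which encodes a zinc finger protein known for roles in hindbrain, nerve and lymphocytes, was at 8.11, 8.14 and 8.16 in the controls and 8.27, 8.24 and 8.12 with Cre-ERT2. Cre-ERT2 arrays 1 and 2 were above the controls and array 3 was among them. The difference of 0.071 ± 0.054 (SE; adjusted p = 0.363) turned to -0.036, -0.032 and -0.022 after quantile normalization, centring and loess, and it was 0.039 without Cre-ERT2 array 1 and 0.12 without Cre-ERT2 array 3. Egr3, which acts with Egr2 in lymphocytes, had control values of 8.89, 8.78 and 8.90 and Cre-ERT2 values of 9.02, 9.05 and 8.96. Its groups did not overlap, but the gap between them was narrow, and the difference of 0.16 ± 0.052 (95% interval 0.037 to 0.28) did not pass (adjusted p = 0.0870). It was 0.099 after quantile normalization and 0.054 after centring (adjusted p = 0.255 and 0.608).

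Ier2 was the gene whose difference pointed most clearly the other way. It was at log2 values of 8.90, 8.85 and 8.85 in the controls and at 8.71, 8.46 and 8.71 with Cre-ERT2. All 3 Cre-ERT2 values lay below the controls, with array 2 far lower than arrays 1 and 3. The difference of -0.24 ± 0.072 (SE; 95% interval -0.40 to -0.074) did not pass in the main comparison (adjusted p = 0.0721). It passed after quantile normalization (-0.31, adjusted p = 0.0438), centring (-0.34, adjusted p = 0.00578), loess (-0.29, adjusted p = 0.0427) and array weights (-0.21, adjusted p = 0.0273), and without Cre-ERT2 array 3 (-0.28, adjusted p = 0.0421). Without Cre-ERT2 array 2 it was -0.15.

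**Figure D2:**
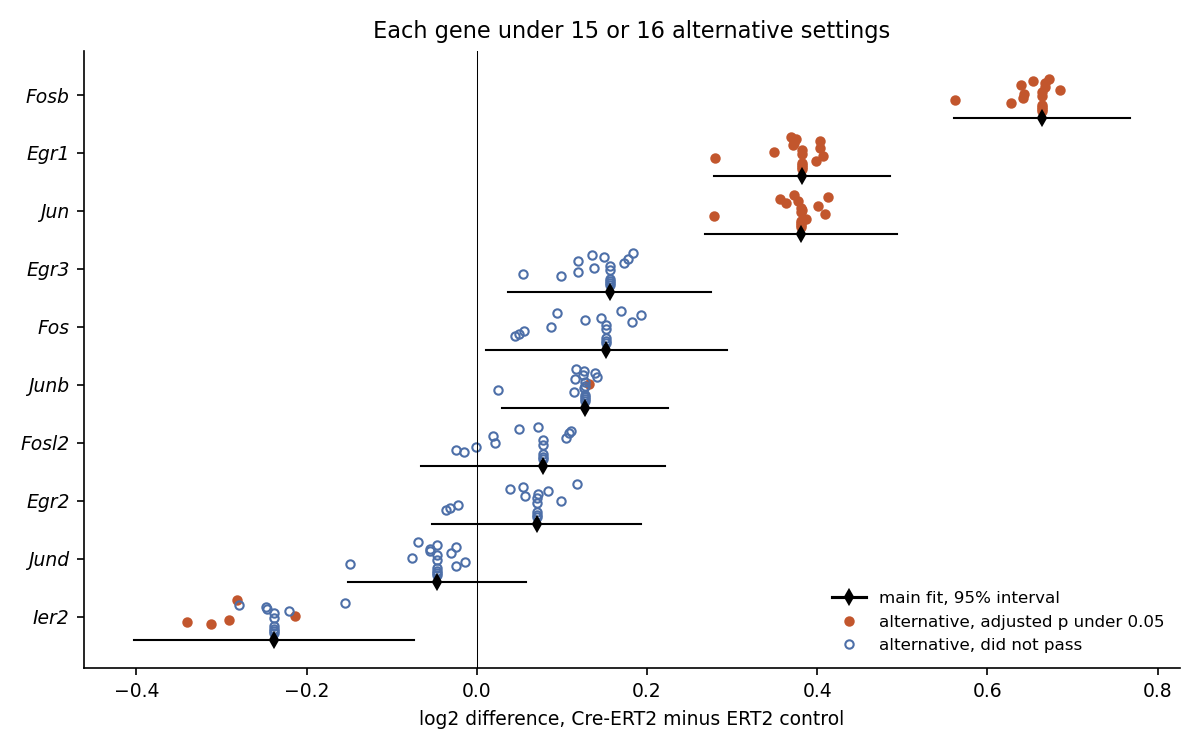
Log2 difference of each gene, Cre-ERT2 minus ERT2 control. Black diamonds with lines are the main comparison with its 95% interval, and dots are 15 or 16 alternative analyses (filter, normalization, model, an array omitted), filled where the adjusted p was under 0.05. Fosb (0.56 to 0.69), Jun (0.28 to 0.41) and Egr1 (0.28 to 0.41) are filled throughout, Fosl2 and Egr2 fall on both sides of 0, and Ier2 lies below 0 throughout with 5 of 16 settings filled.

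Fosb, Jun and Egr1 passed in each of 16 other settings, including each of the 6 fits with 1 array left out. In those 6 fits the log2 difference ran from 0.64 to 0.69 for Fosb, from 0.36 to 0.41 for Jun and from 0.37 to 0.40 for Egr1. Cre-ERT2 array 3 had the array median closest to the controls (log2 8.24, against 8.19 to 8.23 in the controls and 8.37 and 8.32 in Cre-ERT2 arrays 1 and 2). Relative to the mean control, Cre-ERT2 array 3 stood at 0.65 for Fosb, the nearest to the controls, against 0.66 and 0.69 in Cre-ERT2 arrays 1 and 2. For Jun it stood at 0.40, against 0.43 and 0.32, and for Egr1 at 0.41, against 0.34 and 0.40. In these last genes it was not the nearest. For Egr2 the same array stood at -0.025, against 0.13 and 0.10 in Cre-ERT2 arrays 1 and 2.

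Within each family the sizes of the differences were compared directly. The log2 difference between Fosb and Fos within an array was 0.51 ± 0.057 (SE, n = 3 per group) larger in the arrays labelled Cre-ERT2, and that between Fosb and Fosl2 was 0.59 ± 0.075 larger. For Jun the corresponding changes were 0.25 ± 0.054 against Junb and 0.43 ± 0.049 against Jund. For Egr1 they were 0.31 ± 0.074 against Egr2 and 0.23 ± 0.053 against Egr3. In all 6 pairs the values of the groups did not overlap. Each pair set a gene that passed against a relative that did not, so this separation partly follows from the choice of pairs. The two-sided exact permutation p was 0.10 for each, also after adjustment over the 6 pairs; this is the smallest p that this permutation test can give with 3 arrays against 3, so it cannot reach 0.05 whatever the size of the change. A scaling of whole arrays cancels in these differences, which show unequal change only, and the pairs were chosen after the values were seen. A shift that moves with brightness, described below, does not cancel between genes of unlike brightness. Its part in these changes was not tested.

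The size of a difference in this series moved with brightness, which touches the dimmer genes here. Genes tested were split into 10 equal parts by mean log2 value. In the parts that held Fos and Egr2, and Fosl2 and Ier2, the median gene was higher in the arrays labelled Cre-ERT2 by 0.12 and 0.088. In the part of Fosb, Junb and Egr3 the median was -0.0055, in that of Egr1 -0.054 and in that of Jun and Jund -0.030. Relative to those medians Fosb stood at 0.67, Egr1 at 0.44, Jun at 0.41, Egr3 at 0.16 and Junb at 0.13. Fos stood at 0.033, Fosl2 at -0.0099, Jund at -0.017, Egr2 at -0.049 and Ier2 at -0.33. The differences of Fos, Fosl2 and Egr2 were thus about those of other genes of like brightness, and the part of brightness in them was not tested. These genes also lay below a stricter filter at the 50th percentile of mean values.

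**Figure D3:**
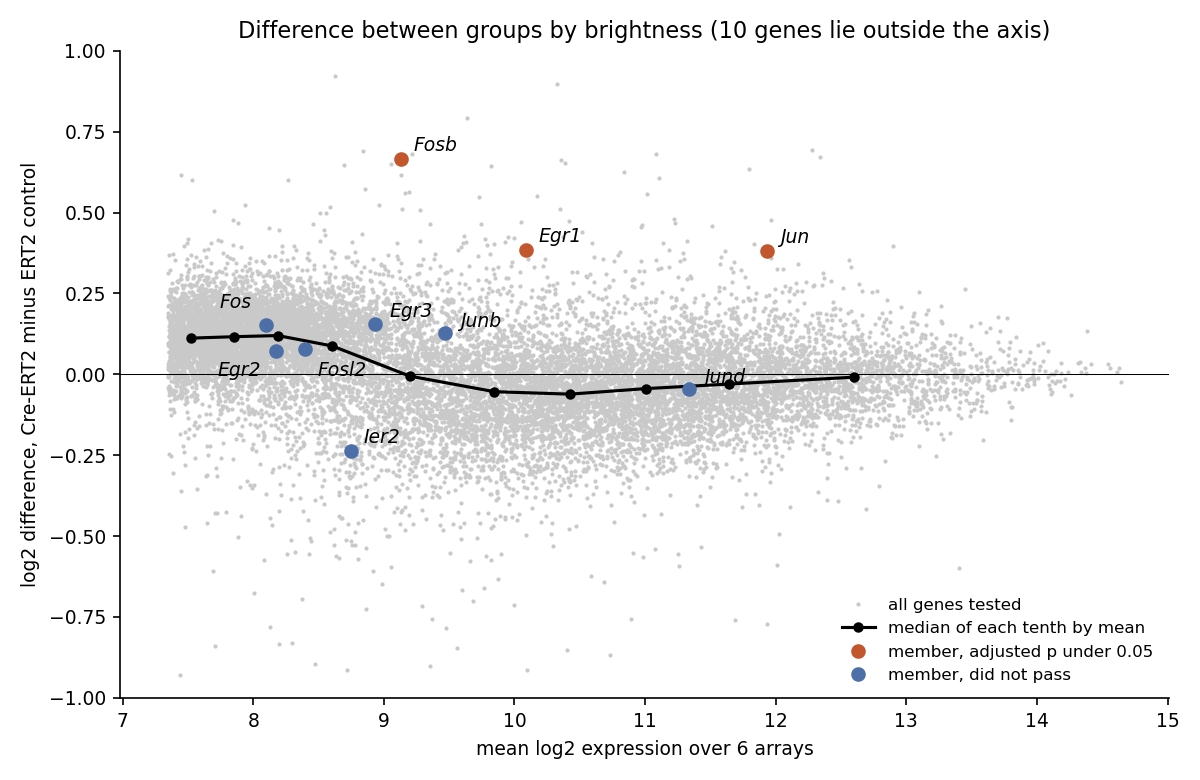
Log2 difference, Cre-ERT2 minus ERT2 control, against mean log2 expression for the genes tested (grey; 10 genes lie outside the axis). The black line joins the median of each of 10 equal parts by mean expression, which is above 0 for dim genes (0.11 to 0.12 in the lowest 3 parts). Fosb, Egr1 and Jun (orange) lie far above that line, Fos, Fosl2, Egr2 and Jund lie near it, and Ier2 lies below it.

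Genes around AP-1 and EGR were counted in lists written for this pathway, also with earlier results of these data known. Besides the 10 genes, 94 distinct genes were tested. Of these, 6 were higher and 4 lower (10.6%, against 7.62% of all genes), with a median log2 difference of -0.0018. Over all genes 3.5% were higher and 4.13% lower, and 19% and 14.4% at an unadjusted p under 0.05. These shares are the background for each list below, heat shock genes and cell markers included.

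Of 13 factors that switch on immediate early genes, 1 was higher and 0 lower, against 7.62% called over all genes. At an unadjusted p under 0.05, 2 were higher and 2 lower, and the median was -0.00057. Mrtfb, which encodes an actin-regulated coactivator of serum response factor, rose by 0.38 ± 0.049 (SE) on the log2 scale, from 11.42 ± 0.038 (SD, n = 3) to 11.80 ± 0.060 (adjusted p = 0.00683). Its 3 probe sets had differences of 0.43, 0.23 and 0.38, all upward. Without ERT2 control array 1 its adjusted p was 0.0529. Srf itself had -0.14 (adjusted p = 0.126), Mef2c -0.16 (0.0590) and Mef2d 0.11 (0.119), none of which passed.

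Of 13 kinase and RAS genes upstream (8 of 21 listed are not analysed here), 1 was lower and 0 higher, against 7.62% called over all genes. At an unadjusted p under 0.05, 4 were lower and 1 higher. Nras, which encodes a RAS GTPase, fell by 0.22 ± 0.048 (SE) on the log2 scale (adjusted p = 0.0350). The ERK kinase gene Map2k1 had -0.17 (adjusted p = 0.0550), the p38 gene Mapk14 -0.14 (0.0885) and the RAF kinase gene Braf 0.12 (0.111). None of these last 3 passed.

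Among 11 other AP-1 type leucine zipper genes, 3 EGR partners and 11 genes of JUN and FOS turnover, limma called none, against 7.62% of all genes. At an unadjusted p under 0.05 they held 1, 1 and 0 higher and 1, 0 and 1 lower. Batf, which encodes a JUN partner without an activation domain, had -0.25 ± 0.074 (SE; adjusted p = 0.0680), the fourth EGR gene Egr4 0.19 ± 0.047 (0.0509), and Cops5, which encodes the JUN-binding subunit of the COP9 signalosome, -0.35 ± 0.088 (0.0504). Atf7, a CREB-like leucine zipper gene, had 0.12 (0.124). The EGR co-repressor genes Nab1 and Nab2, the latter itself an EGR target, had -0.046 (0.516) and 0.12 (0.167).

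Of 32 other immediate early genes tested, 2 were higher and 2 lower, against 7.62% called over all genes, and 28 did not pass (at an unadjusted p under 0.05, 5 higher and 3 lower). Their median difference was 0.0051. Btg2, an antiproliferative gene, rose by 0.25 ± 0.046 (SE; adjusted p = 0.0243) and the activation marker gene Cd69 by 0.22 ± 0.047 (0.0344). Errfi1, which encodes a feedback inhibitor of EGF receptors, fell by 0.41 ± 0.053 (0.00650), and Myc fell by 0.22 ± 0.042 (0.0259). The nuclear protein gene Csrnp1 had 0.16 (0.0676), the NF-kB inhibitor gene Tnfaip3 0.22 (0.0690) and the salt-inducible kinase gene Sik1 -0.20 (0.0678), and these did not pass.

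Of 12 tested genes known as AP-1 or EGR targets, 3 were higher and 1 lower, with a median of 0.036. Over all genes 3.5% were higher and 4.13% lower. Il2ra, the interleukin-2 receptor gene, rose by 0.40 ± 0.052 (SE; adjusted p = 0.00711), Hmox1, which encodes haem oxygenase, by 0.27 ± 0.045 (0.0172) and Plaur, the urokinase receptor gene, by 0.19 ± 0.044 (0.0412). Ccnd1, which encodes cyclin D1 and is induced by AP-1 in many cells, fell by 0.85 ± 0.044, from 10.83 to 9.98 (adjusted p = 1.09e-04). Ccnd1 thus moved opposite to Fosb and Jun.

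**Figure D4:**
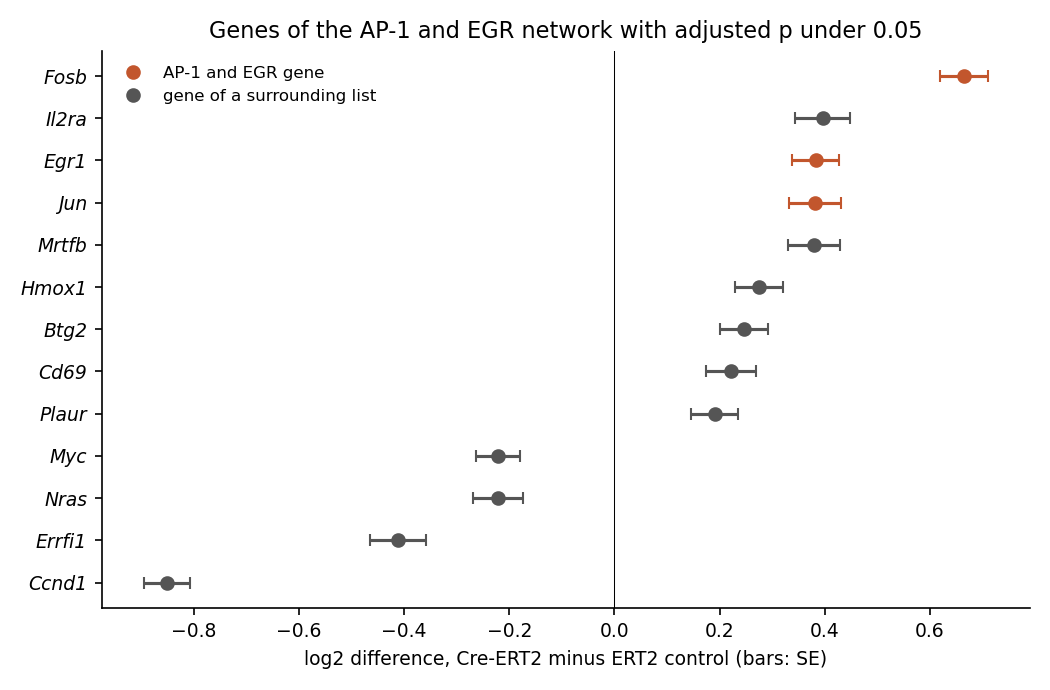
Log2 difference with its standard error, Cre-ERT2 minus ERT2 control, for genes of the AP-1 and EGR lists that passed an adjusted p of 0.05. Orange marks Fosb, Egr1 and Jun, grey the genes of the surrounding lists. Fosb lies highest at 0.66 and Ccnd1 lowest at -0.85.

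Errfi1 and Ccnd1 passed with each array left out, and Il2ra in 5 of 6 such fits (adjusted p = 0.0542 without ERT2 control array 1). Nras, Myc, Cd69 and Plaur passed only without Cre-ERT2 array 3; leaving out any other array ended the call, with an adjusted p of up to 0.157, 0.129, 0.153 and 0.172. Btg2 and Hmox1 lost their calls without any of the 3 ERT2 controls or without Cre-ERT2 array 1 (up to 0.0954 and 0.101). Plaur lies in the dimmest of the 10 parts by brightness, where the median gene was higher by 0.11. It was 0.084, 0.088 and 0.081 after quantile normalization, centring and loess (adjusted p = 0.314, 0.388 and 0.265). After centring Btg2 was 0.14, Cd69 0.12 and Hmox1 0.17, and none passed (adjusted p = 0.161, 0.230 and 0.0857). Nras, Myc, Cd69 and Plaur also lost their calls without the filter on dim genes and over all probe sets, and Btg2 and Hmox1 over all probe sets (adjusted p from 0.0526 to 0.105).

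Heat shock genes, which rise with handling stress, did not pass: of 9 tested, limma called 0, against 7.62% of all genes. At an unadjusted p under 0.05, 1 was higher and 2 lower, and the median was -0.017. Hspa1a had 0.19 (adjusted p = 0.0659) and Hspd1 -0.15 (0.0729). The labelled cell type was checked on 10 B lineage markers, of which the 9 analysed were all bright enough to be tested, with Cd79a, Cd79b and Igll1 near 14 on the log2 scale; 1 was higher, the terminal transferase gene Dntt (0.33, adjusted p = 0.0176, lost without ERT2 control array 1 or 2 or Cre-ERT2 array 1), and 0 were lower. Of 10 myeloid markers 3 were bright enough to be tested, of 9 T and NK markers 4, of 7 erythroid and megakaryocytic markers 5 and of 10 stromal markers 8; the rest lay below the filter.

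In these 4 lists limma called 1 gene, Zap70 (0.23, adjusted p = 0.0464; T and NK list), which lost its call whichever array was omitted (adjusted p of 0.0523 to 0.125). It was 0.13, 0.13 and 0.14 after quantile normalization, centring and loess (adjusted p = 0.231, 0.210 and 0.179). All 4 T and NK markers tested had positive differences, with a median of 0.17. At an unadjusted p under 0.05, 3 of them were higher, against 19% of all genes. All 8 stromal markers tested had positive differences, with a median of 0.15, and 5 were higher at that threshold. Over all genes 56.6% of differences were positive. Several of these markers were dim, such as Pdgfrb (7.45 in the controls), Kdr (7.60) and Cxcl12 (7.69), with differences of 0.14, 0.12 and 0.059. The collagen genes Col1a2, Col3a1 and Col1a1 were brighter (8.77, 8.54 and 9.16) and had differences of 0.21, 0.18 and 0.13. None of these collagen genes passed limma's test (adjusted p = 0.0939, 0.140 and 0.230). In the 3 dimmest of the 10 parts by brightness the median gene was higher by 0.11 to 0.12. The part of brightness in the marker differences was not tested. Pecam1, listed as an endothelial marker, had 0.16 (adjusted p = 0.0627). At 11.30 in the controls it was far brighter than Cdh5 (7.97) and Kdr of the same list. The summed linear level of all 10 stromal markers was 4756 to 4922 in the controls and 5290 to 5503 with Cre-ERT2. For T and NK markers it was 1395 to 1448 against 1510 to 1636, for myeloid markers 1894 to 2018 against 1965 to 2068, and for erythroid and megakaryocytic markers 8686 to 9156 against 8771 to 9422. Such sums weigh bright genes most, in the controls Pecam1 at log2 11.30 (stromal) and Tfrc at 12.88 (erythroid and megakaryocytic). The part of other cells in the values of Fosb, Jun and Egr1 was not tested. In such bulk RNA, a change in the share of cells and a change in RNA per cell cannot be told apart.

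The genes whose values over the 6 arrays were most like those of Fosb were Vamp5 (Pearson's r = 0.9987), Tex13c3 (0.9984), Gramd4 (0.9975), Rbpms (0.9958) and Tle3 (0.9948). Their log2 differences were 0.36, 0.26, 0.18, 0.47 and 0.19. These correlations describe 6 arrays in 2 groups, so any gene with a clear group difference scores high, and none of the other 9 immediate early genes was among them.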

How the data were processed

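The deposited values are log2 expression, 1 per probe set and array, for 35556 probe sets on 6 arrays. The submitters' processing notes name RMA (background correction, normalization and probe summary) and Partek 6.5; their settings and the build are not given in what was used here. The deposited log2 values were not transformed further.

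Gene symbols came from the platform annotation: 21789 had 1 symbol, 1621 several (not used) and 12146 are unnamed here. The probe set with the highest mean was used per gene. The 4985 genes with a mean under the 25th percentile (7.35) were left out, and 14953 were tested with limma 3.58.1 (R 4.3.3; lmFit and eBayes, two-sided, Benjamini-Hochberg over all genes tested, threshold 0.05). No covariate was fitted; the labels give none. The number of arrays limits the precision.

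The genes and lists were chosen with earlier results of these data known. The text names all 10 genes, each list gene that passed and up to 3 others per list with the smallest p, the B lineage markers that check the cell type, and the 5 genes most correlated with Fosb. Some markers of other cells are named as well, to show their brightness. Alternatives were 2 other filters, probe set averaging, all probe sets, quantile normalization, centring, cyclic loess, trend with robust estimation, array weights, a replicate block, each array left out and a threshold of 0.01. On simulated data for this comparison (14953 genes), 40% of 100 genes changed by 0.3 and 95% of 100 changed by 0.6 on the log2 scale were recovered, with 6 false calls. The simulation drew independent normal noise for each gene, without the array shifts or the brightness trend of the real data. Its false calls therefore give no error rate for this series. Motifs were searched in RefSeq promoter windows with Python 3.11.15.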

Additional observations from a re-analysis of the deposited data

How the results depend on the processing

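Fosb, Jun and Egr1 kept their direction and their calls under all alternatives run. Fosl2 turned to -0.014, -0.025 and -0.0010, and Egr2 to -0.036, -0.032 and -0.022, after quantile normalization, centring and cyclic loess. Junb passed with array weights (0.13). Ier2 passed at -0.31, -0.34, -0.29 and -0.21 after quantile normalization, centring, cyclic loess and array weights, which made 1 gene lower in place of 0; with 1 array left out it ran from -0.28 to -0.15, and 0 or 1 genes were lower. The cause was not tested.

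Over the whole table, 523 higher and 617 lower genes became 187 and 250 without the filter on dim genes, 54 and 92 over all probe sets, 223 and 2797 after centring, 849 and 1298 with trend and robust estimation, 2273 and 1720 with array weights, and 52 and 91 at an adjusted p under 0.01; the stricter filter gave 1011 lower. With 1 array left out, higher genes ran from 40 (without ERT2 control array 1) to 1696 (without Cre-ERT2 array 3) and lower genes from 76 to 1346 (the same arrays). Of the surrounding lists, 6 higher and 4 lower became 2 and 2 over all probe sets, 2 and 15 after centring, 13 and 11 with array weights, and 2 and 2 at the stricter threshold; 2 lower without the filter, 9 lower with the stricter filter and 9 lower with trend and robust estimation. With 1 array left out they ran from 0 to 9 higher and from 2 to 13 lower.

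Arrays that share a number did not deviate together (r = 0.069, -0.17 and -0.40 for numbers 1, 2 and 3 across genes), so the labels' numbers were not taken as pairs. With the replicate block, 47 genes were higher and 100 lower over the whole table, 0 and 2 in the surrounding lists, and Fosb, Jun and Egr1 passed (adjusted p = 0.0106, 0.0349 and 0.0436).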
